A study of Mus musculus with 9 samples.

Results

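The genes described here encode the co-receptors that present lipopolysaccharide (LPS) to Toll-like receptor 4, the TIR-domain adaptors that carry Toll-like receptor signals into the cell, and 4 proteins that escort or restrain these receptors. They were chosen by name and with earlier results of these data known. They are Cd14, Ly96, Cd180, Ly86, Myd88, Tirap, Ticam1, Ticam2, Unc93b1 and Sigirr, which are 10 of the 55401 genes in the deposited expression table. All 10 had a mean of 1 or more in TPM, a length-corrected transcript share, and were tested. RNA was sequenced from RAW264.7 cells, an established macrophage-like line grown out of a tumor that Abelson murine leukemia virus had induced in a male mouse, labelled WT. The cells received the solvent DMSO alone (DMSO), LPS with DMSO (LPS), or LPS with skatole, an indole compound (LPS + Ska), for 24 h by the sample labels and by the results section of the study, while its methods section gives a longer time. Each group had 3 samples, numbered 5, 6 and 7, and nothing in the labels says that they came from separate cultures, so the p-values measure the spread between these samples, which may be technical. No group received skatole without LPS.

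LPS is the outer wall glycolipid of Gram-negative bacteria. Cd14 takes up LPS and hands it to the receptor pair of Tlr4 and Ly96 (MD-2), which then dimerizes. At the cell surface Tirap bridges the receptor to Myd88, the adaptor shared by most Toll-like receptors and by the interleukin-1 receptor family, and in endosomes Ticam2 (TRAM) bridges it to Ticam1 (TRIF), which leads to type I interferon. Cd180 (RP105) and its partner Ly86 (MD-1) resemble Tlr4 and Ly96 but lack a signalling domain and are known to restrain Tlr4 in macrophages. Unc93b1 carries nucleic acid-sensing Toll-like receptors to endosomes, and Sigirr is an inhibitory receptor of the same superfamily.

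The deposited values were TPM, transcript shares scaled to the same sum in every sample and corrected for transcript length, so that levels can be compared between genes but the sequencing depth is unknown. The columns of the LPS group, and those of the LPS + Ska group, were tied to each other. Replicate 5 was the mean of replicates 6 and 7 in all 17950 genes of the LPS group and all 17658 genes of the LPS + Ska group in which both were above 0, within 5e-06 TPM, which held for at most 0.0614% of genes in DMSO. Each of these groups therefore carried at most 2 independent values per gene. In these genes an SD of TPM over the 3 tied columns equals the difference between replicate 5 and either other replicate. Any SD over tied columns is given as n = 3 columns, and for a ratio of genes this equality need not hold. Fold changes were estimated with limma on log2(TPM + 1), a scale on which the changes of weakly expressed genes appear too small. A gene was called higher or lower at a Benjamini-Hochberg adjusted p below 0.05 over the 12819 genes tested together with a fold change above 1.5 or below 0.67. Every fit was repeated on 2 recovered values of each tied group, which assume how its columns were made. The p-values printed count 3 values in each tied group unless the recovered values are named, so they can be too small. On the recovered values the limma adjusted p of Cd14 in LPS + Ska compared with LPS was 0.0013 in place of 8.1e-05. That of Unc93b1 in LPS compared with DMSO was 8.6e-06 in place of 6.0e-07. Cd180 went the other way in LPS and in LPS + Ska compared with DMSO, to 0.027 from 0.056 and to 1.4e-04 from 2.2e-04. Of 10 macrophage markers, 9 reached 1 TPM in each group and Mertk was at 0, while 17 of 28 markers of other cell types were at 0 in every column and 2 of them reached 1 TPM.

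LPS left the 10 genes divided. Ly96 was called higher, Ly86, Unc93b1 and Sigirr were called lower, and none of the 4 adaptors was called, so that 4 of 10 genes were called where 32.7% of all genes tested were (12.7% higher and 20.0% lower). With skatole added to LPS, Ly96 and Sigirr were called higher than with LPS alone, 2 of 10 genes where 9.49% of all genes were called (3.35% higher and 6.14% lower). Neither call was kept with the recovered values, by which 7.82% of all genes were called. Against DMSO, LPS + Ska had 6 called genes where 36.7% of all genes were called (11.4% higher and 25.3% lower), with Cd14 and Ly96 higher and Cd180, Ly86, Unc93b1 and Sigirr lower. The comparisons of LPS and of LPS + Ska with DMSO share the DMSO samples. Those of LPS with DMSO and of LPS + Ska with LPS share the LPS samples, which enter them with opposite signs. By the adjusted p alone, 6, 5 and 7 of the 10 genes passed in LPS compared with DMSO, LPS + Ska compared with LPS and LPS + Ska compared with DMSO, where 60.3%, 28.6% and 63.3% of all genes passed. On the recovered values the 5 became 2, Cd14 and Cd180, where 18.6% of all genes passed. The columns did not overlap between groups for 7 genes in LPS compared with DMSO, 9 in LPS + Ska compared with LPS and 8 in LPS + Ska compared with DMSO, where 68.9%, 51.2% and 64.8% of all genes tested did not overlap. The median log2 fold change of the 10 genes was -0.18, -0.06 and -0.36 in these comparisons, and that of all genes tested was -0.07, -0.10 and -0.18. Scaling the columns by their median ratio across genes moved the last of these to -0.01 and left 4 genes called in LPS + Ska compared with DMSO, 2 higher and 2 lower, where 34.7% of all genes were called, since Cd180 and Sigirr then missed the fold limit.

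**Figure D1:**
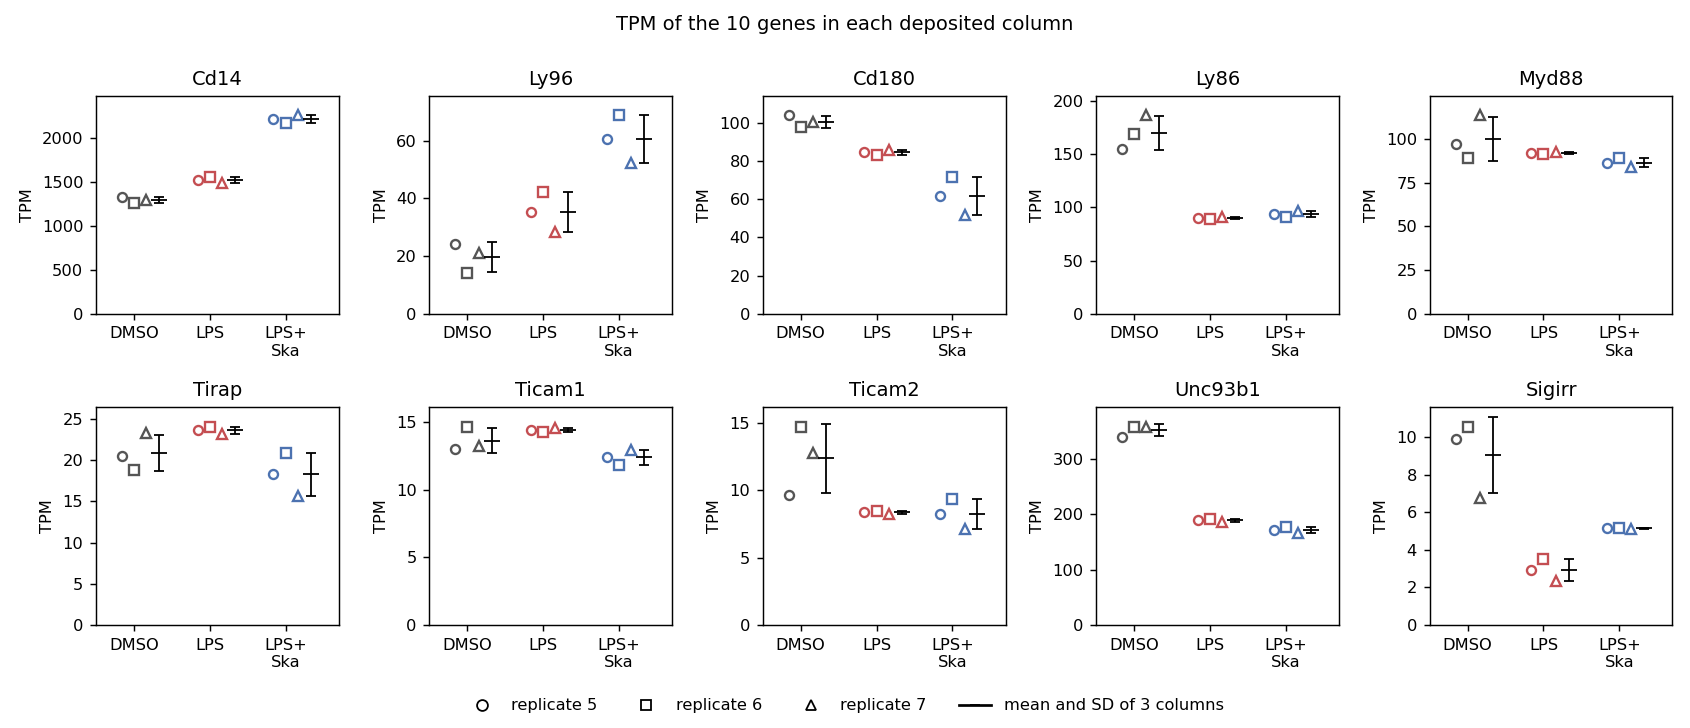
TPM of each of the 10 genes in every deposited column, by group, with marker shape for the replicate number and the mean and SD of 3 columns beside the points; each axis starts at 0. Cd14 and Ly96 lie highest with LPS + Ska, Ly86 and Unc93b1 lie highest in DMSO, and Sigirr is lowest with LPS. The adaptors Myd88 and Ticam1 stay within a narrow band, and Tirap lies lower with LPS + Ska than with LPS.

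Cd14 (ENSMUSG00000051439) encodes a glycolipid-anchored surface protein that also circulates in soluble form. It was the most abundant of the 10 genes in every group. Its TPM was 1328, 1260 and 1301 in DMSO, 1523, 1560 and 1486 with LPS, and 2218, 2178 and 2259 with LPS + Ska, in the order of replicates 5, 6 and 7. The ranges of the 3 groups did not overlap. The means were 1296 ± 34.6 TPM (SD, n = 3) in DMSO, 1523 ± 37.1 TPM (SD, n = 3 columns) with LPS and 2218 ± 40.6 TPM (SD, n = 3 columns) with LPS + Ska. The larger of the steps was the one between LPS and LPS + Ska, with a log2 fold change of 0.54 (standard error 0.04, limma adjusted p = 8.1e-05), which is a ratio of 1.46 and so just inside the fold limit. With median-ratio scaling the log2 fold change was 0.64 and Cd14 was called higher. LPS compared with DMSO gave 0.23 (adjusted p = 0.0016), also inside the fold limit. Against DMSO, Cd14 was called higher with LPS + Ska at 0.77 (adjusted p = 9.4e-07).

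Ly96 (ENSMUSG00000025779; GRCm38 chromosome 1, 16688051 to 16709611, plus strand) encodes the small secreted protein that forms the LPS-binding pocket beside Tlr4. It had the largest log2 fold change of the 10 genes in LPS + Ska compared with DMSO. Its TPM was 24.3, 14.0 and 21.0 in DMSO, 35.4, 42.4 and 28.4 with LPS, and 60.5, 68.8 and 52.2 with LPS + Ska. The groups did not overlap, although replicates within each group were spread more widely than for Cd14. Ly96 was called higher with LPS than in DMSO at a log2 fold change of 0.82 (standard error 0.20, limma adjusted p = 0.0063). It was called higher with LPS + Ska than in DMSO at 1.59 (adjusted p = 1.1e-04). Between LPS and LPS + Ska the difference was 0.77, with a standard error of 0.20 and a 95% interval from 0.31 to 1.22 (adjusted p = 0.021). That call was lost with the recovered values (adjusted p = 0.050), without LPS replicate 5 (adjusted p = 0.063), without LPS replicate 7 (adjusted p = 0.076), without LPS + Ska replicate 5 (adjusted p = 0.065) and without the filter on low values (adjusted p = 0.058).

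Tlr4 itself, the signalling receptor that both proteins serve, moved the other way with LPS. Its TPM was 35.0, 39.7 and 42.6 in DMSO, 24.0, 23.1 and 24.8 with LPS, and 29.5, 34.2 and 24.8 with LPS + Ska. Tlr4 was called lower with LPS than in DMSO at a log2 fold change of -0.68 (limma adjusted p = 7.4e-04) and was not called with LPS + Ska, at 0.28 against LPS (adjusted p = 0.10) and -0.40 against DMSO (adjusted p = 0.013, inside the fold limit). Within a column, Ly96 had 0.513 ± 0.173 times the TPM of Tlr4 in DMSO (SD, n = 3), 1.48 ± 0.343 times with LPS (SD, n = 3 columns) and 2.05 ± 0.0456 times with LPS + Ska (SD, n = 3 columns). Ly96 transcripts were thus fewer than Tlr4 transcripts in all 3 DMSO columns and more numerous in all 6 others. Cd14 had 33.4 ± 3.99 times the TPM of Tlr4 in DMSO (SD, n = 3), 63.6 ± 3.78 times with LPS (SD, n = 3 columns) and 76.5 ± 13.7 times with LPS + Ska (SD, n = 3 columns). The ratio of Cd14 to Tlr4 did not overlap between DMSO and either other group, and LPS and LPS + Ska overlapped. These ratios are descriptions with no test.

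**Figure D2:**
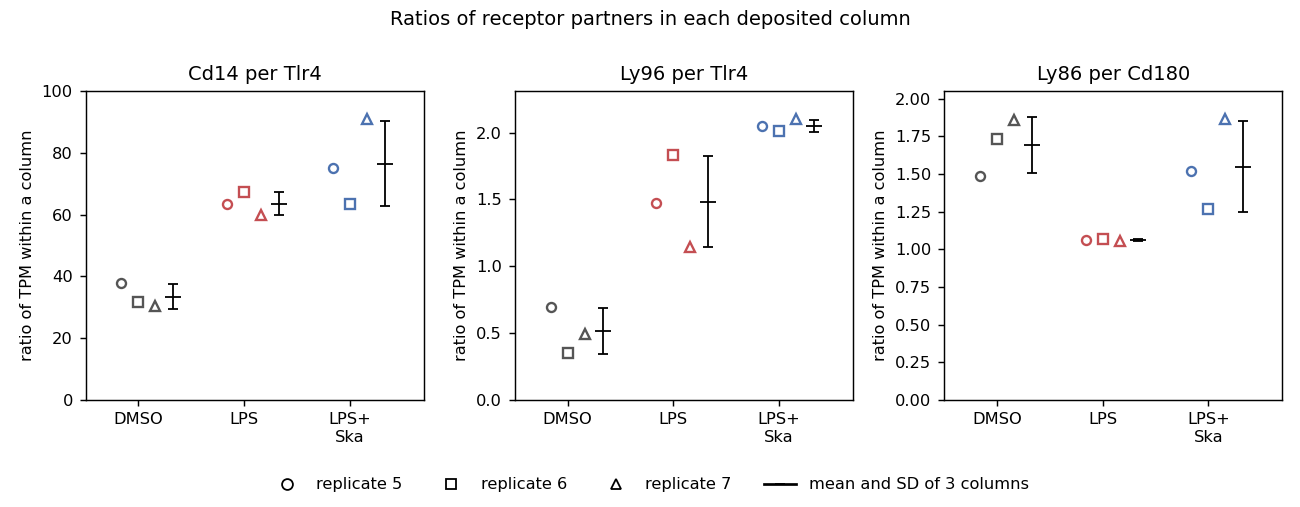
Ratio of TPM within each deposited column for Cd14 to Tlr4, Ly96 to Tlr4 and Ly86 to Cd180, by group, with the mean and SD of 3 columns beside the points; each axis starts at 0. Ly96 passes from below 1 per Tlr4 in DMSO to about 2.05 with LPS + Ska, and Ly86 per Cd180 is lowest with LPS, where its columns lie close together at 1.06.

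Cd180 and Ly86 encode partners that form one surface complex, and both genes lie on chromosome 13. Of the 10 genes, 5 had promoter windows in the RefSeq table for GRCm38.p6. The sequences just before the starts of this pair are shown because the proteins act together while their TPM followed different orders across the groups. The Cd180 window is chr13:102693297-102693546 and the Ly86 window, shortened to end before the first annotated exon, is chr13:37345095-37345207, both on the plus strand of GRCm38.p6. Capitals mark the ETS core GGAA on either strand in Cd180, and TGCGCA, a palindrome that makes up part of the NRF1 motif, in Ly86.
Cd180: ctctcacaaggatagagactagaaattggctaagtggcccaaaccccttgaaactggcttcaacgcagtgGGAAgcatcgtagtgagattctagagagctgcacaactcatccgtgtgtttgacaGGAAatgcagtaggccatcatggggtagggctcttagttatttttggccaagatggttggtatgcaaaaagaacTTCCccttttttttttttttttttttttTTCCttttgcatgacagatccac
Ly86: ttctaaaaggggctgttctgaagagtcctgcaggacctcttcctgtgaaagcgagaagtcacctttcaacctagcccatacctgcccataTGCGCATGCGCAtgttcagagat
The Cd180 window holds 4 ETS cores, at 180, 125, 51 and 23 bases before the start counted to the leftmost base, a motif found in 93.4% of all 32851 windows of that length, and an unbroken run of 24 thymines that reaches into the last core. The Ly86 window holds 1 ETS core, 74 bases before the start, a motif found in 72% of windows cut to its 113 bases. It holds 2 adjoining copies of TGCGCA, which begin 23 and 17 bases before the start. This motif was looked for after the window had been read. Of windows of this length, 1.9% hold at least 1 copy, and the share with 2 adjoining copies was not counted. The letters GAGGAA (a PU.1 core, which contains the ETS core), TGANTCA (AP-1) and TATAAA were found in neither window on either strand, and they are found in 23.3%, 6.75% and 12.4% of all windows of 250 bases and in 11.3%, 2.87% and 5.75% of those cut to 113 bases. Any motif match is a description of the letters, not a site of binding.

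Ly86 (ENSMUSG00000021423; chromosome 13, 37345208 to 37419036, plus strand) was lower with LPS whether or not skatole was present. Its TPM was 155, 169 and 186 in DMSO, 89.7, 88.8 and 90.7 with LPS, and 93.6, 90.9 and 96.2 with LPS + Ska. Every DMSO column lay above all 6 others, and the LPS columns lay just below the LPS + Ska columns. Ly86 was called lower with LPS than in DMSO at a log2 fold change of -0.91 (standard error 0.07, limma adjusted p = 5.1e-06) and lower with LPS + Ska than in DMSO at -0.85 (adjusted p = 6.0e-06). LPS + Ska compared with LPS gave 0.06 (adjusted p = 0.55), with a 95% interval from -0.09 to 0.21.

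Cd180 (ENSMUSG00000021624; chromosome 13, 102693558 to 102739629, plus strand) had its lowest TPM where skatole was present. Its TPM was 104, 97.6 and 100.2 in DMSO, 84.4, 83.2 and 85.7 with LPS, and 61.6, 71.7 and 51.6 with LPS + Ska. The 3 groups did not overlap. Cd180 was called lower with LPS + Ska than in DMSO at a log2 fold change of -0.71 (standard error 0.10, limma adjusted p = 2.2e-04), which became -0.53 and missed the fold limit with median-ratio scaling. LPS + Ska compared with LPS gave -0.46 (adjusted p = 0.0093), inside the fold limit, and LPS compared with DMSO gave -0.25 (adjusted p = 0.056), or an adjusted p of 0.027 with the recovered values. Within a column, Ly86 had 1.69 ± 0.188 times the TPM of Cd180 in DMSO (SD, n = 3), 1.06 ± 0.00420 times with LPS (SD, n = 3 columns) and 1.55 ± 0.299 times with LPS + Ska (SD, n = 3 columns). The ratio was lowest in the 3 LPS columns, while those of DMSO and LPS + Ska overlapped. In the annotation Cd180 shares 182 exon bases, 4.04% of its own, with Mast4, which had at most 4.20 TPM in any column.

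Of all genes tested, 32.7% were called in LPS and 36.7% in LPS + Ska, each compared with DMSO. In LPS + Ska compared with LPS 9.49% were. None of the 4 adaptor genes was called in any comparison. Myd88 (ENSMUSG00000032508; chromosome 9, 119335934 to 119341411, minus strand), which assembles the Irak kinases, was the most abundant of them. Its TPM was 97.3, 88.9 and 113 in DMSO, 91.9, 91.2 and 92.5 with LPS, and 86.5, 89.2 and 83.8 with LPS + Ska. The LPS columns lay within the range of DMSO, where Myd88 had 7.37 ± 1.27 times the TPM of Ticam1 (SD, n = 3). The log2 fold change of Myd88 was -0.11 in LPS compared with DMSO (limma adjusted p = 0.26, 95% interval -0.30 to 0.07) and -0.20 in LPS + Ska compared with DMSO (adjusted p = 0.056). LPS + Ska compared with LPS gave -0.09 (adjusted p = 0.46), or 0.01 with median-ratio scaling. Myd88 shares 290 exon bases, 11.3% of its own, with Acaa1a on the opposite strand, and no source used here states whether strand was used in counting. Acaa1a had 261 to 275 TPM in DMSO, 120 to 124 TPM with LPS and 163 to 177 TPM with LPS + Ska, and its part in the values of Myd88 was not tested.

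Tirap (ENSMUSG00000032041; chromosome 9, 35184551 to 35200291, minus strand), the sorting adaptor that brings Myd88 to the plasma membrane, was at 20.5, 18.9 and 23.3 TPM in DMSO, 23.6, 24.1 and 23.2 TPM with LPS, and 18.3, 20.9 and 15.7 TPM with LPS + Ska. The LPS + Ska columns lay below the LPS columns and overlapped DMSO. Its log2 fold change in LPS + Ska compared with LPS was -0.36 (standard error 0.11, limma adjusted p = 0.036), inside the fold limit, and the adjusted p was 0.076 with the recovered values. LPS compared with DMSO gave 0.18 (adjusted p = 0.20), and LPS + Ska compared with DMSO gave -0.19 (adjusted p = 0.16). Tirap shares 39 exon bases, 0.791% of its own, with Srpr on the opposite strand. Srpr had 149 to 166 TPM in DMSO, 235 to 238 TPM with LPS and 171 to 188 TPM with LPS + Ska. The antisense gene Gm39318, with at most 3.08 TPM, shares 5155 bases of gene span with Tirap. The part of either gene in the values of Tirap was not tested.

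Ticam1 and Ticam2 form the second, interferon-inducing arm. Ticam1 (ENSMUSG00000047123; chromosome 17, 56269319 to 56276786, minus strand) stayed between 11.8 and 14.7 TPM in all 9 columns. Its log2 fold change was 0.08 in LPS compared with DMSO (limma adjusted p = 0.42), -0.20 in LPS + Ska against LPS (adjusted p = 0.082) and -0.13 in LPS + Ska against DMSO (adjusted p = 0.19), the last becoming 0.04 with median-ratio scaling.

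Ticam2 (ENSMUSG00000056130), the bridging adaptor of that arm, was at 9.66, 14.7 and 12.7 TPM in DMSO, 8.39, 8.50 and 8.28 TPM with LPS, and 8.25, 9.40 and 7.10 TPM with LPS + Ska. All 3 DMSO columns lay above the others, replicate 5 only narrowly. Its log2 fold change was -0.49 in LPS compared with DMSO (limma adjusted p = 0.017) and -0.52 in LPS + Ska compared with DMSO (adjusted p = 0.012), both inside the fold limit. Without DMSO replicate 5 both were called lower, at -0.65 and -0.68, and without LPS + Ska replicate 6 the latter comparison was also called, at -0.61. LPS + Ska compared with LPS gave -0.03 (adjusted p = 0.90), or 0.06 with median-ratio scaling. Ticam2 shares 838 exon bases, 14.5% of its own, with Tmed7 on the same strand, which had 67.6 to 80.6 TPM in DMSO, 105 to 107 TPM with LPS and 107 to 130 TPM with LPS + Ska, and how reads were divided between them was not tested.

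**Figure D3:**
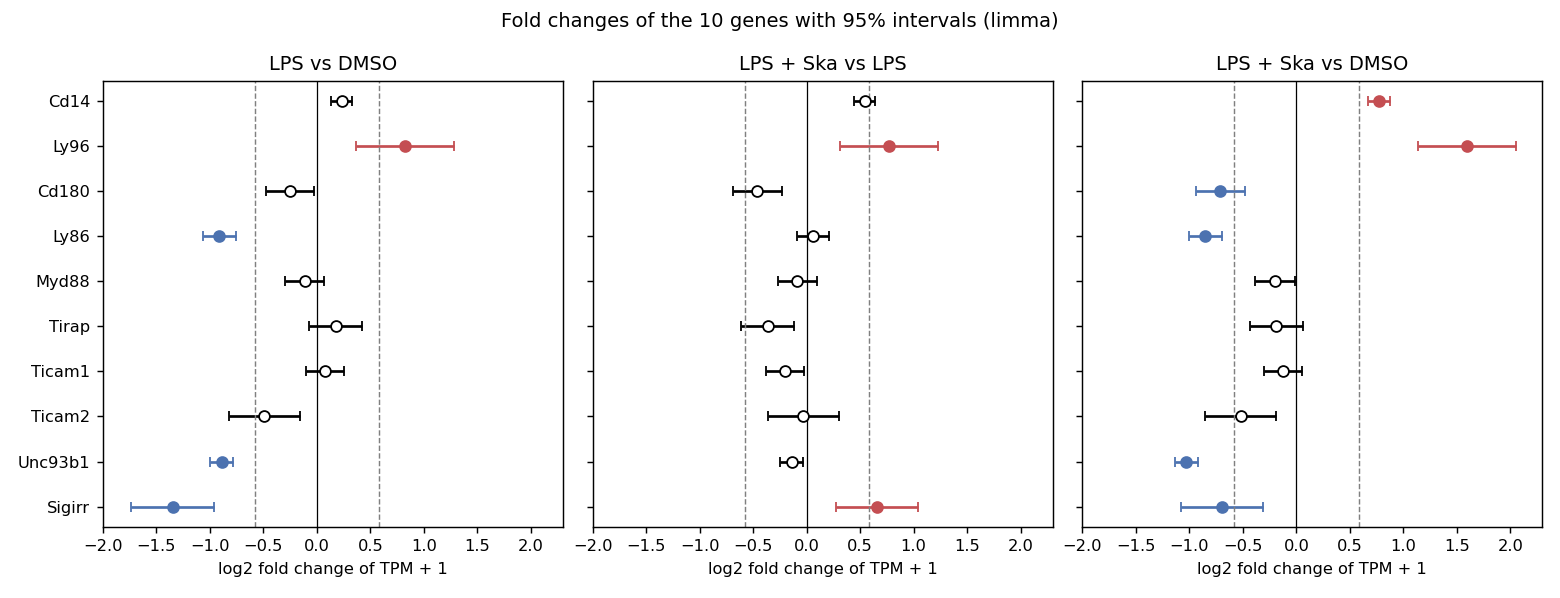
Log2 fold change of TPM + 1 for each of the 10 genes in the 3 comparisons, with 95% intervals from limma; filled red points were called higher, filled blue points called lower, open points not called, and dashed lines mark the fold limits of 1.5 and 0.67. The adaptors are open in every panel, while Cd14 in LPS + Ska compared with LPS lies just inside the upper limit with a narrow interval.

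Unc93b1 (ENSMUSG00000036908; chromosome 19, 3935186 to 3949340, plus strand) was the second most abundant of the 10 genes in every group and had the smallest adjusted p among them in both comparisons with DMSO. Its TPM was 339, 357 and 358 in DMSO, 189, 192 and 186 with LPS, and 172, 177 and 166 with LPS + Ska. The 3 groups did not overlap, and the gap between DMSO and the others was many times the spread within any group. Unc93b1 was called lower with LPS at a log2 fold change of -0.89 (standard error 0.05, limma adjusted p = 6.0e-07) and with LPS + Ska at -1.03 (adjusted p = 2.9e-07), both against DMSO. The further difference between LPS and LPS + Ska was -0.14 (adjusted p = 0.053), and -0.04 with median-ratio scaling. Tlr7, an endosomal RNA sensor, depends on Unc93b1. Within a column Unc93b1 had 4.95 ± 0.203 times the TPM of Tlr7 in DMSO (SD, n = 3), 3.18 ± 0.162 times with LPS (SD, n = 3 columns) and 2.71 ± 0.421 times with LPS + Ska (SD, n = 3 columns), with LPS and LPS + Ska overlapping.

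Sigirr (ENSMUSG00000025494; chromosome 7, 141091175 to 141100572, minus strand) was the least abundant of the 10 genes and had the largest log2 fold change with LPS. Its TPM was 9.89, 10.6 and 6.76 in DMSO, 2.93, 3.54 and 2.32 with LPS, and 5.15, 5.17 and 5.13 with LPS + Ska. The groups did not overlap, with LPS + Ska between LPS and DMSO. Sigirr was called lower with LPS than in DMSO at -1.35 (standard error 0.17, limma adjusted p = 1.2e-04). It was called lower with LPS + Ska than in DMSO at -0.69 (adjusted p = 0.0058), which became -0.53 and missed the fold limit with median-ratio scaling. It was called higher with LPS + Ska than with LPS at 0.66 (standard error 0.17, adjusted p = 0.019), with a 95% interval from 0.28 to 1.04. That call was lost with the recovered values (adjusted p = 0.063), without LPS replicate 5 (adjusted p = 0.064), without LPS replicate 7 (0.54, adjusted p = 0.068) and without LPS + Ska replicate 5 (adjusted p = 0.067).

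Ordered by mean TPM, Cd14 and Unc93b1 came first and Sigirr last in every group. In DMSO, Ly86 followed Unc93b1, and the neighbours Cd180 and Myd88 overlapped in their columns, as did each neighbouring pair in the run of Tirap, Ly96, Ticam1, Ticam2 and Sigirr. With LPS, Myd88, Ly86 and Cd180 lay close together at 91.9, 89.7 and 84.4 TPM, and no neighbours overlapped. With LPS + Ska, Ly96 had moved up to 60.5 TPM beside Cd180 at 61.6 TPM, and this was the overlapping pair.

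The other genes of the pathway were counted in 6 lists of 55 genes, of which 46 were tested. These lists, too, were chosen with earlier results of these data known. In LPS compared with DMSO 20 of the 46 were called, 11 higher and 9 lower, which is 43.5% where 32.7% of all genes were called (12.7% higher and 20.0% lower). Their median log2 fold change was 0.05 beside -0.07 for all genes. Among the Toll-like receptors, 2 of 8 tested were called higher and 3 lower. Tlr13, an endosomal sensor of bacterial ribosomal RNA that needs Unc93b1, had the largest change in this list, from 45.1 to 9.09 TPM (-2.19, limma adjusted p = 3.8e-07). Tlr2, the receptor for bacterial lipoproteins, fell from 257 to 134 TPM (-0.93), while Tlr1, its partner, rose from 19.3 to 37.7 TPM (0.94). Of the receptors not tested, Tlr5, Tlr11 and Tlr12 were listed at 0 in all 9 columns.

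Of the 4 LPS delivery and receptor partner genes tested, Scimp, a membrane scaffold for Toll-like receptors, was called higher with LPS, from 0.229 to 5.31 TPM (2.41, limma adjusted p = 9.0e-06), with 2 of its 3 DMSO columns listed at 0. Of 7 folding and trafficking genes, 2 were called higher and 2 lower. Cnpy3, a chaperone for several Toll-like receptors including Tlr4, fell from 85.1 to 29.6 TPM (-1.49), and Slc15a3, an endolysosomal transporter, rose to 34.0 TPM (1.59), whereas its relative Slc15a4 fell from 48.6 to 26.6 TPM (-0.84). Below the adaptors 3 of 19 kinases, ligases and scaffolds were called higher and 4 lower. The largest were all decreases, in Tab1 (-1.35), which encodes a subunit of the Tak1 kinase complex, Irak1 (-1.12), a kinase recruited by Myd88, and Irf5 (-1.02), a transcription factor activated through Myd88. Of 6 brakes, 2 were called, both higher. They were Tank, an inhibitor of Traf signalling, from 76.9 to 150.1 TPM (0.96), and Irak3, the inactive kinase that restrains Irak1 and Irak4, from 12.2 to 19.4 TPM (0.63). Without DMSO replicate 7, Irak3 was at 0.52 and missed the fold limit. Of 2 other receptors that use Myd88, Il1rap, the shared interleukin-1 co-receptor, was called higher (0.88).

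In LPS + Ska compared with LPS 4 of the 46 pathway genes were called, 2 higher and 2 lower, or 2 and 1 with median-ratio scaling. That is 8.70%, near the 9.49% called among all genes. Tlr13 rose from 9.09 to 16.5 TPM (0.78, limma adjusted p = 0.0010) and Cd36, a scavenger receptor that works with Toll-like receptors, rose from 128 to 257 TPM (0.99, adjusted p = 0.0014). Tlr9, an endosomal DNA sensor that needs Unc93b1, fell from 5.84 to 3.48 TPM (-0.63, adjusted p = 0.018). The Tlr9 call was lost without LPS replicate 5 (adjusted p = 0.067), without LPS replicate 6 (adjusted p = 0.067) and without LPS + Ska replicate 5 (adjusted p = 0.061), and it missed the fold limit without LPS + Ska replicate 7 (-0.47) and with median-ratio scaling (-0.55). Tnfaip3, the ubiquitin-editing brake A20, was called lower, from 12.7 to 6.86 TPM (-0.79, adjusted p = 0.035), a call lost with the recovered values (adjusted p = 0.10), without the filter on low values (adjusted p = 0.083) and without any 1 of the 6 LPS and LPS + Ska columns (adjusted p between 0.052 and 0.11). Among the 19 kinases, ligases and scaffolds limma called none. An unadjusted p below 0.05 was found for 12 of them, or 9 with the recovered values, where 40.5% and 33.9% of all genes had one. The log2 fold change was negative in 17, where 62.9% of all genes were negative, with a median of -0.24 beside -0.10 for all genes. Among the 17, Irak1 (-0.03), Ikbke (-0.02) and Chuk (-0.01) lay near 0. Median-ratio scaling moved the median of all genes to -0.005, and the 17 was not recounted with it. None of the 7 folding and trafficking genes was called, with 1 at an unadjusted p below 0.05, and neither of the 2 other receptors that use Myd88 was called, with 1 at an unadjusted p below 0.05.

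In LPS + Ska compared with DMSO 17 of the 46 were called, 6 higher and 11 lower, or 37.0% where 36.7% of all genes were called. With median-ratio scaling 12 were higher and 10 lower, where 34.7% of all genes were called. Tlr13 (-1.41), Tlr2 (-0.92) and Tlr9 (-0.87) were lower, as was Itgb2, a subunit of complement receptor 3, at -0.69, or -0.51 and inside the fold limit with median-ratio scaling. Scimp (2.79) and Cd36 (1.01) were higher, as was Tank (1.11), the single brake called of 6. In the folding and trafficking list 5 of 7 were called, among them Cnpy3 (-1.57), Slc15a3 (1.32) and Slc15a4 (-0.78), and below the adaptors 1 of 19 was higher and 4 lower, among them Irf5 (-1.33), Irak1 (-1.15) and Irf3 (-1.12), the transcription factor activated through Ticam1. Neither of the 2 other receptors that use Myd88 was called, with 1 at an unadjusted p below 0.05.

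**Figure D4:**
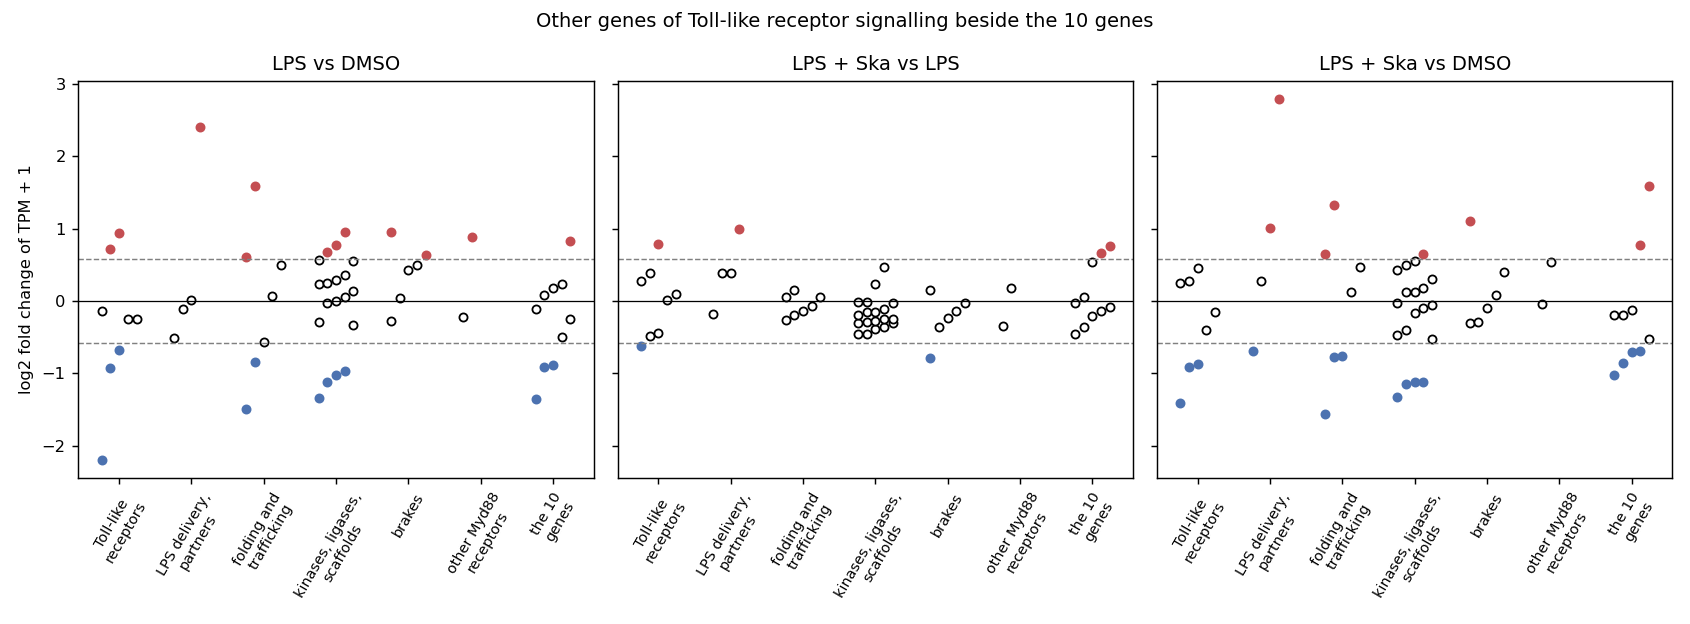
Log2 fold change of TPM + 1 for the 46 tested pathway genes in 6 lists, with the 10 genes described here at the right, in the 3 comparisons; filled red points were called higher, filled blue points lower, open points not called, and dashed lines mark the fold limits. The spread is wide in both comparisons with DMSO and narrow in LPS + Ska compared with LPS, where 4 pathway genes and 2 of the 10 genes are filled.

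For each of the 6 genes called in any comparison, the tested genes with the most similar pattern were found by Pearson correlation of log2(TPM + 1) over the 9 columns. These values are descriptions over columns that share 3 group means and tied replicates. Cd14 was most like Cd63, a lysosomal tetraspanin (r = 0.992), then Gng10 (r = 0.990) and Slc39a4 (r = 0.989). Ly96 was most like Commd2 (r = 0.987), AA414768 (r = 0.987) and BC031181 (r = 0.986). Cd180 was most like Ankrd52 (r = 0.998), Zfhx2 (r = 0.997) and Racgap1, a cytokinesis gene (r = 0.997). Cd14 and Ly96 had their highest TPM, and Cd180 its lowest, with LPS + Ska. Ly86 was most like Lemd2 (r = 0.9997), the stress-responsive transcription factor gene Atf3 (r = 0.999) and Nectin1 (r = 0.998). Unc93b1 was most like Inf2 (r = 0.999), Anapc2 (r = 0.998) and Ctsa, a lysosomal carboxypeptidase (r = 0.998). Sigirr was most like Mfsd11 (r = 0.983), Haghl (r = 0.982) and Ccnq (r = 0.979).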

How the data were processed

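RNA from RAW264.7 cells in 3 groups of 3 samples was sequenced by the authors, who deposited TPM for 55401 genes listed by Ensembl identifier. The submitters' processing notes name fastp 0.20.1, HISAT2 2.2.1, StringTie 2.0 and mm10, with no settings. Symbols matched 55141 identifiers, and TPM summed to between 999895 and 1000145 per column. Because TPM keeps no depth, no counting interval was given. Sequencing libraries were made with a NEBNext Ultra RNA kit, and strand use in counting was not given in the sources used here.

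The log2(TPM + 1) values of the 12819 genes whose mean TPM was 1 or more were fitted over all 9 columns in limma (version 3.58.1, R 4.3.3), using lmFit and a trended eBayes. The fit was also run on simulated data to check that added changes were recovered. That run was not used to judge the p-values of tied columns. The fold limits follow the study. Recovered values were replicate 5 plus and minus 0.5 times its difference from replicate 6. The members and pathway lists were chosen with earlier results of these data known. All 10 members were named, with Tlr4, the 3 called genes of largest change per pathway list and comparison, and the 3 tested genes most correlated with each called member. Correlations of same-numbered columns' deviations across genes were 0.38, 0.15 and 0.13 between LPS and LPS + Ska, whose columns are tied in one form, and -0.032 to 0.080 otherwise, so the numbers were not taken to pair samples. Gene positions and exon overlaps came from GENCODE M21 on GRCm38 (mm10), and promoter windows from RefSeq. The alternatives changed the pseudocount (to 0.1), the filter (none, or a mean TPM of 5), the scaling (median ratio), the columns fitted (2 groups, recovered values, or 1 column left out), the trend (none), the block (replicate number) and the fold limits (none). Plots were made in matplotlib 3.10.9 with Python 3.11.15.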

Additional observations from a re-analysis of the deposited data

How the results depend on the processing

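The log2 fold changes of the 10 genes gave 540 values under 18 alternatives, of which 515 kept their direction and call, 10 gained a call, 11 lost one and 4 changed sign, all 4 in genes that were not called. Those 4 were Myd88 (0.0121) and Ticam2 (0.0597) in LPS + Ska compared with LPS and Ticam1 (0.0435) in LPS + Ska compared with DMSO under median-ratio scaling, and Ticam2 in LPS + Ska compared with LPS without LPS + Ska replicate 7 (0.0627), where leaving out a column gave -0.117 to 0.0627. The cause was not tested. Dropping the fold limits adds, by design, a call for each gene that had passed by the adjusted p alone. Leaving out a column of the group outside a comparison leaves its fold change as it was. The 515 are therefore not independent checks. In LPS + Ska compared with LPS, 1 of the 10 genes was called without the filter, where 1395 of all 25181 genes were called. Without fold limits 5 were called, where 28.6% of all genes were. With the recovered values 0 were called, where 7.82% of all genes were. By those values limma gave 6 of the 10 genes an unadjusted p below 0.05, where 33.9% of all genes had one. With a column left out the number called ranged from 0 to 2. It was 0 when replicate 5 or replicate 7 of LPS, or replicate 5 of LPS + Ska, was left out. Leaving out a column gave 4 to 5 called genes in LPS compared with DMSO and 6 to 7 in LPS + Ska compared with DMSO. Without fold limits, 31 of the 46 pathway genes tested passed in LPS compared with DMSO, where 60.3% of all genes passed. In LPS + Ska compared with LPS 17 passed, where 28.6% of all genes did. In LPS + Ska compared with DMSO 30 passed, where 63.3% of all genes did. In LPS + Ska compared with LPS the pathway count was 2 to 4 with a column left out, and 2 when replicate 5 or 6 of LPS, or replicate 5 of LPS + Ska, was left out. A replicate block left the called counts at 4, 2 and 6 of the 10 genes, with an adjusted p of 0.037 for Ly96 and 0.015 for Sigirr in LPS + Ska compared with LPS, and at 20, 4 and 17 of the pathway genes. Over the whole table, the recovered values kept 986 of the 1216 genes called between LPS + Ska and LPS.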
